A study of Mus musculus with 8 samples.

Results

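Lhx6 and Lhx8 are the 2 genes described here, through the chromatin accessibility of their loci in embryonic mouse forebrain. Single-nucleus ATAC-seq, in which a transposase cuts open chromatin in individual nuclei and the cut sites are sequenced, was carried out on the medial, lateral and caudal ganglionic eminences (MGE, LGE and CGE) and on the cortex (CTX) of wild-type mouse embryos. Each of the 4 tissues was represented by 2 samples. Of the 8 samples, 7 were taken at the embryonic stage E12.5 and CTX replicate 2 was taken at E14.5. No animal carried a transgene or received a treatment according to the labels, and the labels do not say whether the replicates came from separate embryos, so p-values measure the spread between these samples only. Peaks were called separately in each sample. They were merged over the 8 samples into 292532 regions, and a region belonged to a gene when it overlapped the gene body or lay within 50 kb of it. By this rule Lhx6 had 15 regions and Lhx8 had 27, which makes 42 member regions. Regions are numbered along the chromosome within each gene's window, so that region 8 of Lhx6 is the one over the gene itself.

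Lhx6 and Lhx8 encode LIM-homeodomain transcription factors, proteins that pair a DNA-binding homeodomain with LIM domains through which cofactors such as Ldb1 join them into larger complexes. In the ventral forebrain both act downstream of Nkx2-1, the homeodomain factor that specifies the MGE. Lhx6 is known for its role in cortical interneurons that leave the MGE, and Lhx8 for its role in cholinergic neurons of the basal forebrain.

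On the GRCm38 assembly, Lhx6 (ENSMUSG00000026890) lies on the minus strand at chr2:36081953-36105408. Its window also holds Morn5 (chr2:36049458-36079718, plus strand), whose 3′ end faces the 3′ end of Lhx6, and the start sites of Ndufa8, Rbm18 and Mrrf. Of the 15 Lhx6 regions, 7 overlapped the Morn5 body and were counted as shared with it. Lhx8 (ENSMUSG00000096225) lies on the minus strand at chr3:154306294-154330659, and apart from the 3′ end of Slc44a5 no other protein-coding gene enters its window. No Lhx8 region was shared with Morn5.

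The sequences shown come from the 2 promoters and from 3 of the accessible stretches that were searched. They are read from the GRCm38.p6 genome on the minus strand, the coding strand of both genes. Capitals mark matches, on either strand, to 5 short cores: TAATTA (LIM-homeodomain and Dlx factors), CACTTG (Nkx2-1), CAGCTG (an E-box), ACAATG (Sox factors) and TGTTTAC (forkhead factors). The promoters are the 250 bases upstream of the annotated 5′ end of each gene, chr2:36105409-36105658 and chr3:154330660-154330909. Both genes have further annotated starts inside the body, which are not shown. The stretch beside the Morn5 end (chr2:36077445-36077744) lies in a Morn5 intron and is shown because it was in a peak of its own in the samples outside the MGE and inside the long MGE peak described below. Region 27 of Lhx8 is shown by 300 bases that were in a peak of all 8 samples (chr3:154381525-154381824, between genes). Region 13 of Lhx6 (chr2:36140489-36140788, in a Mrrf intron) is shown because it had the highest MGE counts among the Lhx6 regions called in MGE alone.
Lhx6 promoter: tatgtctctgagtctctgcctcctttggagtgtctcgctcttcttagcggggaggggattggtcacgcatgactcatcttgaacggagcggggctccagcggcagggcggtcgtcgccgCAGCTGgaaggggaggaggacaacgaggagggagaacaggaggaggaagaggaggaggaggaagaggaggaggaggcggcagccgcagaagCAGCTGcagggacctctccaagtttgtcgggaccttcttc
Lhx8 promoter: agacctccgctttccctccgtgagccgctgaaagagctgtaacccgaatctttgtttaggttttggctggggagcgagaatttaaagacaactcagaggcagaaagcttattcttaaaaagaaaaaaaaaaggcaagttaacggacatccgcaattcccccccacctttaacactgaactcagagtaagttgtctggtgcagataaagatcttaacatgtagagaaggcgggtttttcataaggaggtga
Lhx6 stretch beside the Morn5 end: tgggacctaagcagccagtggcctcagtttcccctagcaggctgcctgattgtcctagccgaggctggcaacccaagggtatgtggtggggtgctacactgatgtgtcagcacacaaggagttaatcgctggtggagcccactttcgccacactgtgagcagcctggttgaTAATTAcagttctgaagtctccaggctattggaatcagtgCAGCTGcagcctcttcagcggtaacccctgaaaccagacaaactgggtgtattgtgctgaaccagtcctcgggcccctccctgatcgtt
Lhx8 region 27: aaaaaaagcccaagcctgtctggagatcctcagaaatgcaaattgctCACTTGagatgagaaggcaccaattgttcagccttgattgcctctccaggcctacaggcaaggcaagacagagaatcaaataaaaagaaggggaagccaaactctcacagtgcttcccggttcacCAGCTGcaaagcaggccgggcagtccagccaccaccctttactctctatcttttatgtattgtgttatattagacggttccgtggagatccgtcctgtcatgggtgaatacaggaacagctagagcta
Lhx6 region 13: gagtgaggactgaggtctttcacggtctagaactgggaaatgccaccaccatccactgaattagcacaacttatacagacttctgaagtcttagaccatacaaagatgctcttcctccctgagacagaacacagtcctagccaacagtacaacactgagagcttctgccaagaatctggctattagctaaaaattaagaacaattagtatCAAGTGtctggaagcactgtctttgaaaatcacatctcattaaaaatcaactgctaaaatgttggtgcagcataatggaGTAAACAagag

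The stretch beside the Morn5 end held 1 TAATTA and 1 CAGCTG. Region 27 of Lhx8 held 1 CACTTG and 1 CAGCTG, and region 13 of Lhx6 held 1 CACTTG and 1 TGTTTAC, both on the reverse strand. The Lhx6 promoter held 2 CAGCTG and no other match, and no match to the 5 cores fell in the Lhx8 promoter window. Among the accessible stretches searched and not shown, a mid-body stretch of Lhx6 (chr2:36091267-36091566) held no match. The same was true of 300 bases of region 8 of Lhx8 (chr3:154303899-154304198), which was called in MGE alone. Such matches are common: among the central 300 bases of the 76295 regions with a peak in all 6 eminence samples, 10.2% held TAATTA, 16.7% CACTTG, 21.5% CAGCTG, 15.3% ACAATG and 4.02% TGTTTAC. Over the 250 upstream bases of 32851 RefSeq promoters the shares were 4.84%, 11.6%, 13.0%, 10.7% and 3.17%.

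The samples held between 3465 and 6845 nuclei and between 77387940 and 138873845 counts in peaks, with medians of 14584 to 17256 counts per nucleus in 7 samples and 22209.5 in CTX replicate 1. Any pair of samples shared 15 to 56 barcodes, at most 1.17% of the smaller sample. The MGE label was borne out by the window of Nkx2-1, which was higher in MGE than in LGE, CGE and CTX (values below). The CTX samples stood apart from each other as well as from the eminences: 95.4% of the nuclei of CTX replicate 1 fell in clusters resembling glutamatergic neurons, and 88.4% of those of CTX replicate 2 fell in clusters that could not be named. Age and replicate cannot be told apart in CTX, so comparisons of the members and their motifs with CTX are given with and without each CTX sample. Other genes are compared with CTX with both of its samples in the fit.

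Across the Lhx6 body, chromatin was called open from end to end in MGE and in separate islands elsewhere. In MGE replicate 1 a single peak of 30.49 kb, and in MGE replicate 2 a single peak of 30.44 kb, ran from the Morn5 3′ end across all of Lhx6 to beyond its start site. These were among the widest peaks of those samples, ranking 9 in replicate 1 and 7 in replicate 2. LGE had 5 separate peaks over the body in each replicate, CGE had 5 and 6, and CTX had 7 in each. Together those peaks covered 5.94 and 9.14 kb in LGE, 10.2 and 13.8 kb in CGE and 10.6 and 9.65 kb in CTX. A start-site peak was present in every sample, so the promoter itself was open in all 4 tissues.

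**Figure D1:**
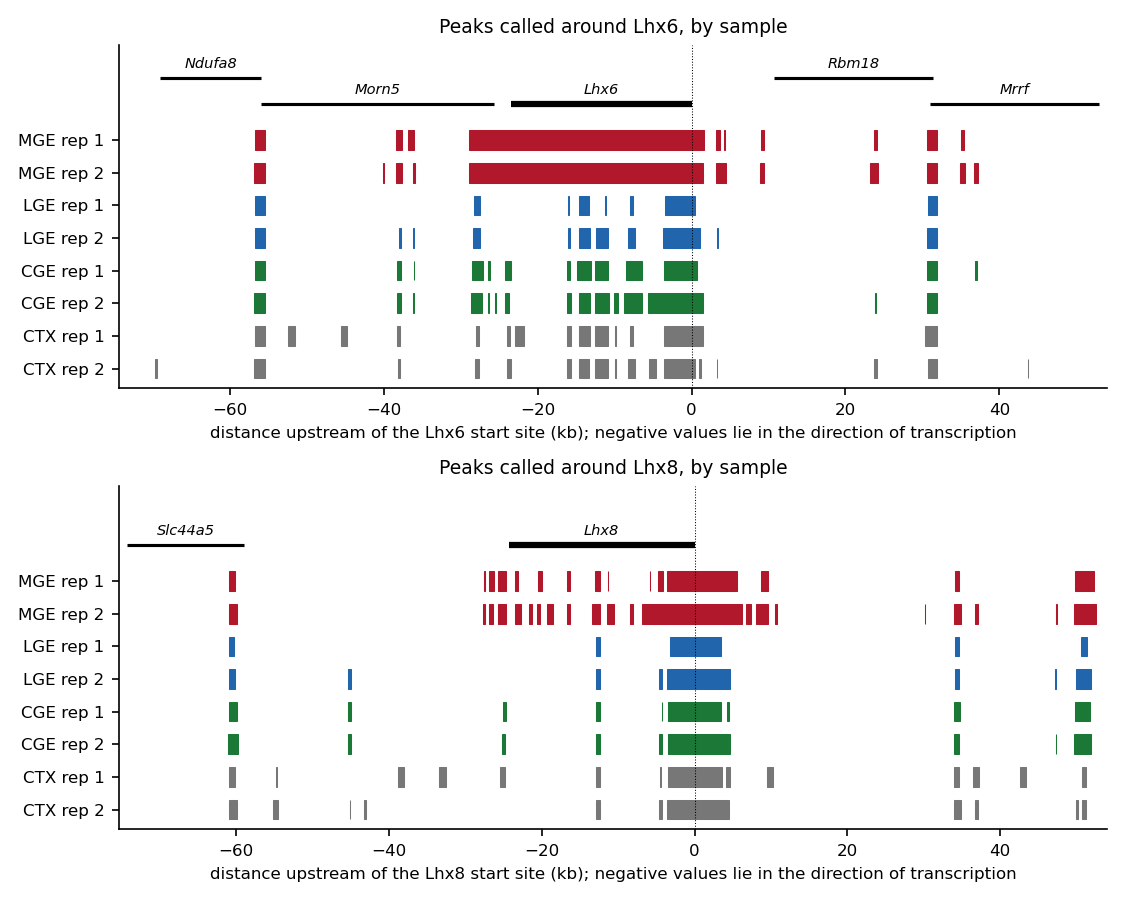
Peaks called in each sample around Lhx6 (top) and Lhx8 (bottom), drawn to scale against the distance upstream of each gene's start site in kb, with gene bodies as black lines. The MGE samples have 1 unbroken peak over Lhx6 and many short peaks over Lhx8, while LGE, CGE and CTX have separate islands over Lhx6 and 2 or 3 peaks over the Lhx8 body.

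Region 8 of Lhx6, which merges those peaks, held 249.9 and 212.1 counts per 1000000 counts in peaks (CPM) in MGE. It held 45.2 and 56.1 CPM in LGE, 58.8 and 60.1 CPM in CGE, and 30.6 and 45.6 CPM in CTX. Both MGE samples were above every other sample. The means of LGE and CGE lay closer together than the LGE replicates did, and CTX replicate 2 came within the LGE range. In edgeR's quasi-likelihood test across all regions, MGE was higher than LGE by 2.22 ± 0.18 on the log2 scale (SE, n = 2 against 2, adjusted p = 0.00203). The difference was 1.99 ± 0.18 against CGE (adjusted p = 0.00297) and 2.42 ± 0.22 against CTX (adjusted p = 0.00363). LGE and CGE differed by -0.22 ± 0.18 (adjusted p = 0.736). In sums over all nuclei of a sample, fewer nuclei of a class and less accessibility per nucleus cannot be told apart.

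The separate islands outside the MGE were unequal. The start-site peak held 24.8 and 28.5 CPM in LGE, 28.6 and 31.7 CPM in CGE, and 16.2 and 16.1 CPM in CTX. A mid-body peak over a coding exon and its flanking introns (the stretch chr2:36091267-36091566 was in a peak of all 8 samples) held 10.5 and 14.2 CPM in LGE, 8.69 and 9.37 CPM in CGE, and 5.01 CPM in CTX replicate 1. It reached 18.8 CPM in CTX replicate 2, the later embryonic day, where it held more counts than the start-site peak. In every other sample outside the MGE the start-site peak was the higher of the pair. Another island lay within 1 kb of a further annotated Lhx6 start inside the body. It held 0.387 and 2.89 CPM in LGE, 3.81 and 3.68 CPM in CGE, and 3.42 and 3.41 CPM in CTX.

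Separating the peaks shared with Morn5 divided the MGE counts differently from those of the other tissues. Peaks of region 8 that ended before the Lhx6 body, most of their counts inside the 3′ part of Morn5, held 7.49 and 7.42 CPM in LGE, 12.4 and 10.4 CPM in CGE, and 1.5 and 2.13 CPM in CTX. No such separate peak existed in MGE, where the long peak included that stretch. All peaks shared with Morn5 together, the long MGE peak included, held 282.7 and 244.7 CPM in MGE. The same sum was 32.3 and 35.5 CPM in LGE, 32.9 and 37.8 CPM in CGE, and 24.0 and 24.6 CPM in CTX. In Lhx6 peaks not shared with Morn5 the MGE samples were the lowest, with 36.4 and 40.5 CPM in MGE, 66.0 and 78.9 CPM in LGE, 74.9 and 78.7 CPM in CGE, and 49.4 and 70.0 CPM in CTX. In MGE none of the body counts were left in that second sum, because the peak that held them touched Morn5, and the matrix gives 1 count per peak, so the part of the long peak that belonged to either gene could not be read from it.

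Elsewhere in the Lhx6 window, 2 regions lay over the start sites of other genes and were open in all samples. Region 2, over the facing starts of Morn5 and Ndufa8, held 27.7 and 28.9 CPM in MGE, 24.8 and 27.3 CPM in LGE, 21.1 and 26.8 CPM in CGE, and 15.6 and 23.0 CPM in CTX. Region 12, over the starts of Rbm18 and Mrrf, ranged from 19.8 to 30.9 CPM over the 8 samples. Neither passed the test in any of the 4 comparisons, and their log2 differences between MGE and the other tissues were 0.10 to 0.37. The other 5 regions shared with Morn5 were small. Region 6 held 3.34 and 2.96 CPM in MGE, 0.497 CPM in LGE replicate 2 with no peak in LGE replicate 1, 1.32 and 1.23 CPM in CGE, and 1.02 and 0.455 CPM in CTX. Region 7 held 1.74 and 0.439 CPM in MGE and at most 0.273 CPM elsewhere. Regions 3 and 4 were called in CTX replicate 1 alone (4.13 and 2.26 CPM) and region 5 in MGE replicate 2 alone (0.310 CPM). Of the 12 Lhx6 regions not over a start site, regions 10 and 13 had a peak in both MGE samples and in no other. Region 13 held 1.23 and 1.71 CPM, and region 10, at 8.93 kb upstream of the Lhx6 start, held 1.07 and 1.19 CPM. Beside these and region 5, 4 were called in both MGE samples and in some of the others, 1 in MGE replicate 2 and CGE replicate 1, and 4 in no MGE sample.

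At Lhx8 the MGE had more peaks and higher counts over the start site, but no single peak over the gene. Region 18 (chr3:154323743-154336839) covers the Lhx8 start site and the first part of the gene. It held 105.3 and 111.3 CPM in MGE, 58.6 and 66.1 CPM in LGE, 44.3 and 48.0 CPM in CGE, and 29.0 and 45.9 CPM in CTX. Both MGE samples were above all others, LGE was above CGE in both replicates, and CTX replicate 2 fell within the CGE range. MGE was higher than LGE by 0.83 ± 0.16 on the log2 scale (adjusted p = 0.0178, edgeR), than CGE by 1.26 ± 0.16 (adjusted p = 0.00569) and than CTX by 1.35 ± 0.21 (adjusted p = 0.0113). LGE against CGE gave 0.44 ± 0.16 (adjusted p = 0.309). Single samples decided some of these calls, since the one against LGE was lost without LGE replicate 1 (adjusted p = 0.108) and the one against CTX without MGE replicate 1 or MGE replicate 2 (adjusted p = 0.0671 and 0.0583).

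On the log2 scale, the largest difference between MGE and CTX among the 8 tested regions was at region 27 of Lhx8, 49.7 kb upstream of the start site and at the edge of the window (chr3:154380402-154383279). It held 20.6 and 23.6 CPM in MGE, 5.22 and 6.67 CPM in LGE, 10.0 and 9.12 CPM in CGE, and 1.44 and 2.04 CPM in CTX. The groups did not overlap, and they followed the order MGE, CGE, LGE and CTX. MGE was higher than LGE by 1.92 ± 0.22 on the log2 scale (adjusted p = 0.00332, edgeR), than CGE by 1.25 ± 0.21 (adjusted p = 0.0127) and than CTX by 3.49 ± 0.31 (adjusted p = 0.00347). LGE was below CGE by a log2 difference of -0.68 ± 0.21, which did not pass the threshold (adjusted p = 0.236). Without CGE replicate 1 or CGE replicate 2 the difference between MGE and CGE was no longer called (adjusted p = 0.0755 and 0.0851).

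Most of the other Lhx8 regions were small peaks called in MGE. Of the 27, 6 had a peak in both MGE samples and in no other sample (22.2%, against 0.61% of all merged regions), and for Lhx6 the count was 2 of 15 (13.3%). One of the Lhx8 regions, region 16, was called in MGE replicate 1 as 3 bases with no count. The highest of the 6 by mean were region 8, with 1.51 and 1.25 CPM, and region 10, with 0.908 and 1.15 CPM. Region 8 lies beyond the 3′ end of Lhx8 and region 10 within the gene. Another 6 regions were called in MGE replicate 2 alone, which raised the regions called in MGE and nowhere else to 12 for Lhx8 (44.4%) and 3 for Lhx6 (20%), against 6.3% of all regions. MGE replicate 2 had 163509 peaks and MGE replicate 1 had 105456, and the part of this difference in those calls was not tested. In the 34 member regions without a peak in some sample, no sample held more than 6.66 CPM, a value reached by region 6 of Lhx8 in CTX replicate 1. Of the 27 Lhx8 regions 5 were called in all 8 samples. Beside regions 18 and 27 these were region 1, within Slc44a5, with 6.95 to 10.1 CPM, region 15, in the Lhx8 body, with 1.30 to 3.84 CPM, and region 23, upstream, with 1.61 to 3.86 CPM, and none of these 3 was called by edgeR in any comparison, while DESeq2 called region 15 between MGE and CTX (log2 difference of 0.97, adjusted p = 0.0482).

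**Figure D2:**
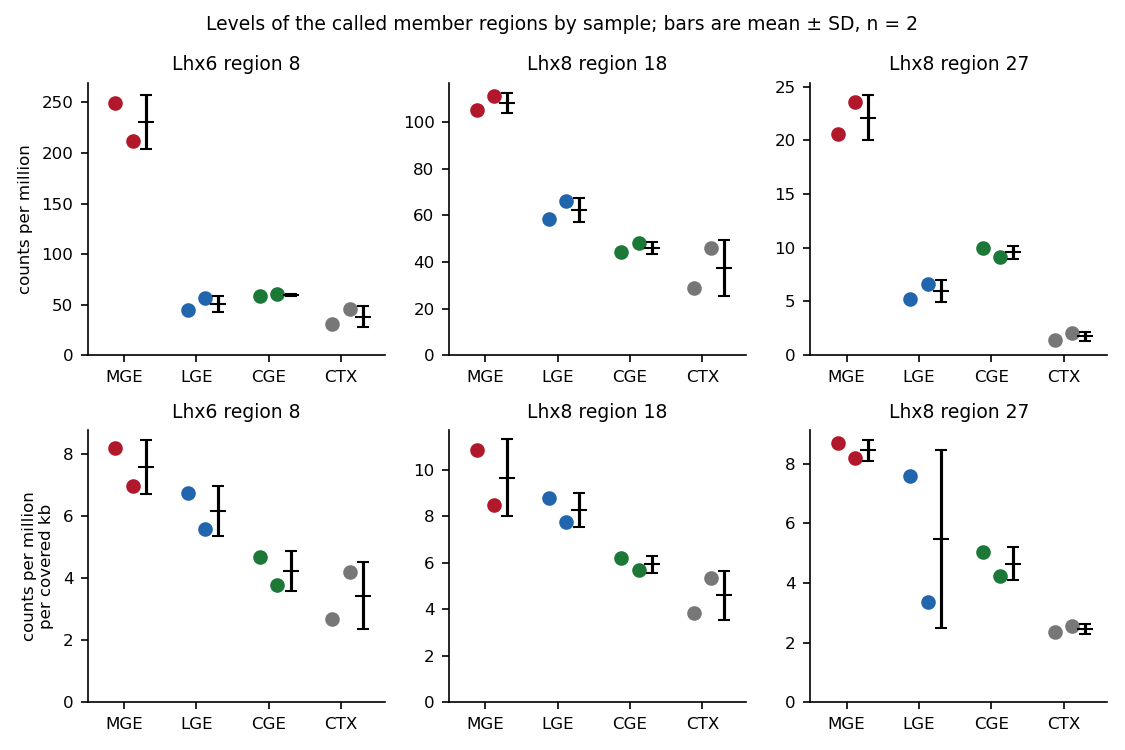
Levels of region 8 of Lhx6 and regions 18 and 27 of Lhx8 in each sample, as CPM (top) and as the same value per kb covered by that sample's own peaks (bottom), with mean ± SD (n = 2). The MGE samples are above all others in the top row. In the bottom row the gaps are smaller, and at region 18 MGE replicate 2 (8.496) is below LGE replicate 1 (8.795). At region 27 LGE replicate 1 reaches 7.59 against 8.20 in MGE replicate 2.

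Of the 8 member regions that entered the main fit because every sample had a peak there, 3 were called in each comparison of MGE with another tissue, all higher in MGE (region 8 of Lhx6 and regions 18 and 27 of Lhx8). Across all regions, 11.1% of 76295 were called between MGE and LGE (5.05% higher in MGE), 9.56% between MGE and CGE (3.74% higher) and 11.8% of 68274 between MGE and CTX (4.9% higher). Between LGE and CGE no member and no region at all was called by edgeR, although 9512 regions had an unadjusted p below 0.05, regions 18 and 27 of Lhx8 among them, and DESeq2 called 3153 regions and no member. In CPM, 6 of the 8 tested members had both MGE samples above all 6 others, against 8.36% of regions with a peak in every sample. Without CTX replicate 1 or CTX replicate 2, the same 3 regions were called between MGE and CTX. When the 4 MGE and CTX samples were fitted alone, none of these was called (adjusted p = 0.0821 to 0.0901), and edgeR called 0 of all 68273 regions in that fit, with 12385 at an unadjusted p below 0.05.

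The called width of the peaks moved with these differences. Per kb covered by a sample's own peaks, region 8 of Lhx6 held 8.20 and 6.97 CPM in MGE, 6.74 and 5.58 in LGE, 4.69 and 3.76 in CGE, and 2.68 and 4.20 in CTX. Region 18 of Lhx8 held 10.8 and 8.50 CPM per kb in MGE, 8.79 and 7.76 in LGE, 6.20 and 5.68 in CGE, and 3.85 and 5.35 in CTX. MGE remained above CGE and CTX in these densities, and its lower replicate came close to or below LGE. With an offset for covered length in the edgeR fit, none of the 3 regions was called between MGE and LGE, with log2 differences of 0.34 ± 0.18, 0.26 ± 0.18 and 0.68 ± 0.26 (adjusted p = 0.322, 0.518 and 0.124). This offset also moved the median of all regions to -0.18 in that comparison. Against CGE all 3 were still called, at 0.89 ± 0.18, 0.74 ± 0.18 and 0.90 ± 0.26 (adjusted p = 0.00143, 0.00952 and 0.0325), with a median of 0.10 over all regions. Against CTX they were also called, at 0.96 ± 0.20, 0.88 ± 0.18 and 1.59 ± 0.34 (adjusted p = 0.0198, 0.0189 and 0.0223), with a median of 0.04.

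**Figure D3:**
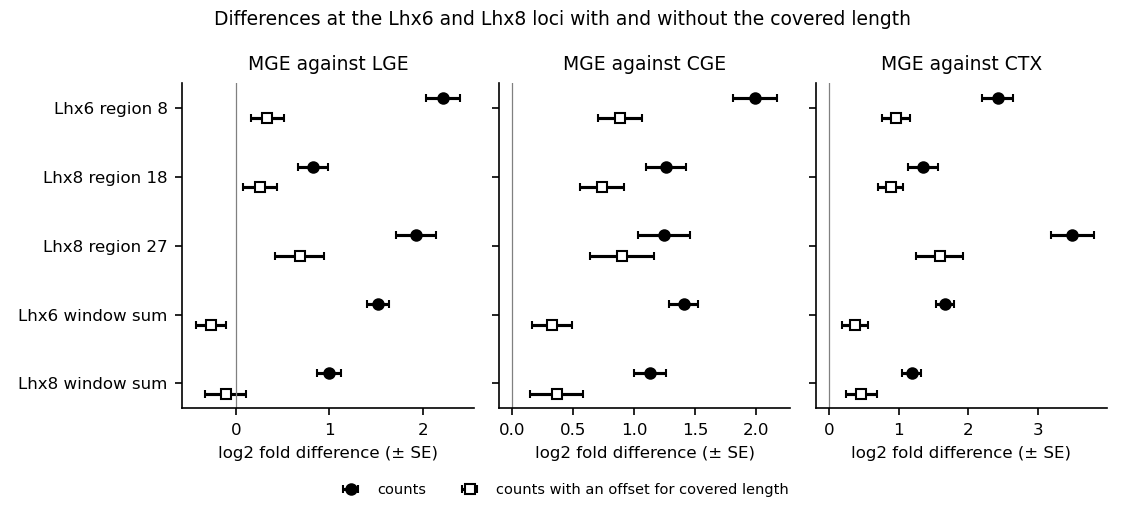
Log2 differences (± SE) between MGE and each other tissue for the 3 called regions and for the summed peaks of each gene's window, from the counts (filled circles) and with an offset for the length covered by peaks (open squares). All filled circles lie above 0.8, while the open squares of the window sums lie between -0.27 and 0.47.

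Summed over all peaks of the window, the Lhx6 locus held 319.1 and 285.2 CPM in MGE, 98.3 and 114.3 CPM in LGE, 107.8 and 116.4 CPM in CGE, and 73.5 and 94.6 CPM in CTX. Those peaks covered 36.5 and 38.1 kb in MGE and 9.08 to 19.5 kb in the other samples. The Lhx8 locus held 150.5 and 167.7 CPM in MGE, 74.1 and 86.9 CPM in LGE, 71.4 and 71.9 CPM in CGE, and 61.0 and 61.4 CPM in CTX, over 17.9 and 27.9 kb in MGE and 8.41 to 14.3 kb elsewhere. A peak counted in these sums only where it reached into the window. Region 27 of Lhx8 lies across the window edge. Its peaks in MGE (20.6 and 23.6 CPM), CGE and LGE replicate 2 were counted. Its peaks in LGE replicate 1 (5.22 CPM) and CTX replicate 1 (1.44 CPM) were left out. So was the larger of its peaks in CTX replicate 2 (1.55 CPM). This lowered the Lhx8 sums and covered lengths of those samples and not of MGE. MGE was above all other samples at both loci. LGE and CGE overlapped at Lhx6, and at Lhx8 LGE was slightly higher.

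With a replicate block neither window sum was called against LGE or CGE, where edgeR called 0 of 19737 genes in either comparison. In the main fit, without that block, both window sums passed the test in each comparison with MGE. The Lhx6 sum was higher in MGE than in LGE by 1.52 ± 0.12 on the log2 scale (adjusted p = 0.00411, edgeR), than in CGE by 1.41 ± 0.12 (adjusted p = 0.0058) and than in CTX by 1.66 ± 0.13 (adjusted p = 0.00143). For Lhx8 the differences were 1.00 ± 0.13 (adjusted p = 0.0476), 1.13 ± 0.13 (adjusted p = 0.027) and 1.19 ± 0.14 (adjusted p = 0.00606). The Lhx8 sums of LGE replicate 1 and of CTX lack the peaks beyond the window edge named above, which widens their gap from MGE. Of all genes tested the same way, 0.106% were called between MGE and LGE (0.0608% higher in MGE), 0.127% between MGE and CGE (0.0659% higher) and 5.22% between MGE and CTX (1.17% higher and 4.05% lower). LGE and CGE differed by -0.11 ± 0.12 at Lhx6 and 0.13 ± 0.13 at Lhx8 (adjusted p = 1 for each). With the covered-length offset the differences from LGE were -0.27 and -0.11 and none of the 6 was called, in a fit that called 1 of 19065 genes against LGE, 1 against CGE and 20 of 19040 against CTX. Without MGE replicate 1 neither sum was called against LGE or CGE (adjusted p = 0.0614 and 0.0968 for Lhx6, 0.159 and 0.129 for Lhx8), and without LGE replicate 1 or CGE replicate 1 the Lhx8 call in the comparison with that tissue was lost (adjusted p = 0.0614 and 0.0764). Without either CTX sample both sums remained called against CTX, at 1.56 and 1.76 for Lhx6 and 1.27 and 1.11 for Lhx8.

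The share of nuclei with at least 1 fragment followed the same order. Nuclei with fewer than 5000 fragments were left out, and each of the others was thinned to 5000. This kept 4718 of 6845 and 2889 of 3465 nuclei in MGE, and 4803 of 6577 and 3856 of 4769 in LGE. In CGE it kept 3062 of 4013 and 3889 of 4530, and in CTX 3564 of 4108 and 4211 of 4946. The classes of the nuclei left out were not compared. Depth did differ between the clusters described below. Relative to the sample median, its median was 0.764 in the GABAergic neuron-like cluster led by Morn5 and Lhx6. In the progenitor-like cluster led by Nkx2-1 it was 1.341. The effect of the floor on these shares by class was not tested. Of the nuclei kept, 67.1% and 68.4% in MGE had a fragment in an Lhx6 window peak. The shares were 35.4% and 41.6% in LGE, 38.4% and 41.3% in CGE, and 27.8% and 36.2% in CTX. For Lhx8 they were 46.9% and 51.2% in MGE, 29.7% and 32.5% in LGE, 27.4% and 28% in CGE, and 24.5% and 25.9% in CTX. Both MGE samples were above all others at either locus. These shares count fragments in each sample's own peaks, which at Lhx6 covered 36.5 and 38.1 kb in MGE and 9.08 to 19.5 kb elsewhere. At Lhx8 the peaks of MGE also covered more than those of any other sample. Unlike the window sums, the Lhx8 shares also count the region 27 peaks of LGE replicate 1 and CTX that lay beyond the window edge. Thinning evens the depth and not this length, whose part in the gaps was not tested. MGE exceeded the mean of the 6 other samples by 30.9 percentage points at Lhx6 and by 21 at Lhx8 (exact permutation test over samples, two-sided, p = 0.0357 for each, the smallest that 28 arrangements allow, and 0.0357 after adjustment over the 3 shares tested).

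At region 8 of Lhx6, 56.1% and 56.5% of the MGE nuclei kept for thinning had a fragment, against 12.8% to 24.0% in the other samples. Only fragments in a sample's own peaks counted. Those peaks covered 30487 and 30439 bases of region 8 in MGE and 6707 to 15954 bases in the other samples, so unlike lengths are compared. In the peaks shared with Morn5 the shares were 61.8% and 62.5% in MGE and 10.8% to 16.5% elsewhere, but this gap is set in part by the assignment, since the body counts of MGE are in that sum and those of the other samples are not, so its p is left out. In Lhx6 peaks not shared with Morn5 the shares were 16.2% and 18.4% in MGE and 19.7% to 30.8% elsewhere, the long MGE peak being counted with Morn5. At region 27 of Lhx8, 9.28% and 10.1% of the MGE nuclei kept had a fragment. The shares were 2.78% and 3.19% in LGE, 4.63% and 4.5% in CGE, and 0.812% and 1.09% in CTX. Without thinning, and over all nuclei, the Lhx6 shares were 75.1% and 81.5% in MGE and 48.2% to 58.6% elsewhere. Leaving out an MGE sample leaves 7 arrangements, and the smallest p is then 0.143.

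Nuclei were grouped into classes without the peaks of either locus, from 68266 regions, and named from marker lists. The classes resembled progenitors, GABAergic neurons and glutamatergic neurons. Progenitor-like nuclei made up 52.3% and 40.2% of MGE and GABAergic neuron-like nuclei 46.3% and 56.9%. Different clusters held most of each class in MGE and in LGE or CGE: in the MGE replicates, 3175 of 3578 and 1298 of 1394 progenitor-like nuclei lay in a cluster led by Nkx2-1, and 3049 of 3171 and 1894 of 1970 GABAergic neuron-like nuclei in a cluster led by Morn5 and Lhx6. LGE and CGE had most of theirs in other clusters. Levels are given as values with no test, and doublets were not removed.

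Region 8 of Lhx6 was higher in both MGE samples than in LGE and CGE in the GABAergic neuron-like and progenitor-like classes. In GABAergic neuron-like nuclei the level was 400.2 and 303.9 CPM in MGE, 57.2 and 65.9 CPM in LGE, and 85.6 and 86.4 CPM in CGE. In progenitor-like nuclei it was 176.1 and 157.5 CPM in MGE, 41.1 and 53.3 CPM in LGE, and 50.1 and 51.2 CPM in CGE. In glutamatergic neuron-like nuclei it was 83.1 CPM in the 65 nuclei of MGE replicate 2 (84 counts; the other MGE sample had 25 such nuclei), 36.4 and 47.3 CPM in LGE, and 48.1 and 48.0 CPM in CGE. The level was thus higher in the GABAergic neuron-like than in the progenitor-like class in all 6 eminence samples. That class pools clusters. The one led by Morn5 and Lhx6 gave it 75 and 57 nuclei in LGE and 203 and 266 in CGE. What those nuclei added to the LGE and CGE levels was not tested. In 139 GABAergic neuron-like nuclei of CTX replicate 1 region 8 held 153.7 CPM, against 29.7 CPM in the glutamatergic neuron-like nuclei of that sample. Those 139 nuclei were shallow, with a median of 3586 counts, and their 153.7 CPM rested on 144 counts.

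Region 18 of Lhx8 behaved differently outside the MGE. In GABAergic neuron-like nuclei it held 131.6 and 132.2 CPM in MGE, 55.0 and 63.0 CPM in LGE, 37.1 and 40.9 CPM in CGE, and 6.41 CPM (6 counts) in CTX replicate 1. In progenitor-like nuclei it held 92.8 and 100.3 CPM in MGE, 63.3 and 69.4 CPM in LGE, and 50.5 and 57.6 CPM in CGE. Neuron-like nuclei were thus above progenitor-like nuclei in MGE and below them in LGE and CGE. In the 65 glutamatergic neuron-like nuclei of MGE replicate 2 it held 40.5 CPM, below LGE (46.2 and 55.2 CPM) and beside CGE (33.2 and 39.3 CPM). Region 27 of Lhx8 held 20.4 and 19.1 CPM in the GABAergic neuron-like and 20.9 and 27 CPM in the progenitor-like nuclei of MGE. The means of those classes differed by less than the progenitor-like replicates did.

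**Figure D4:**
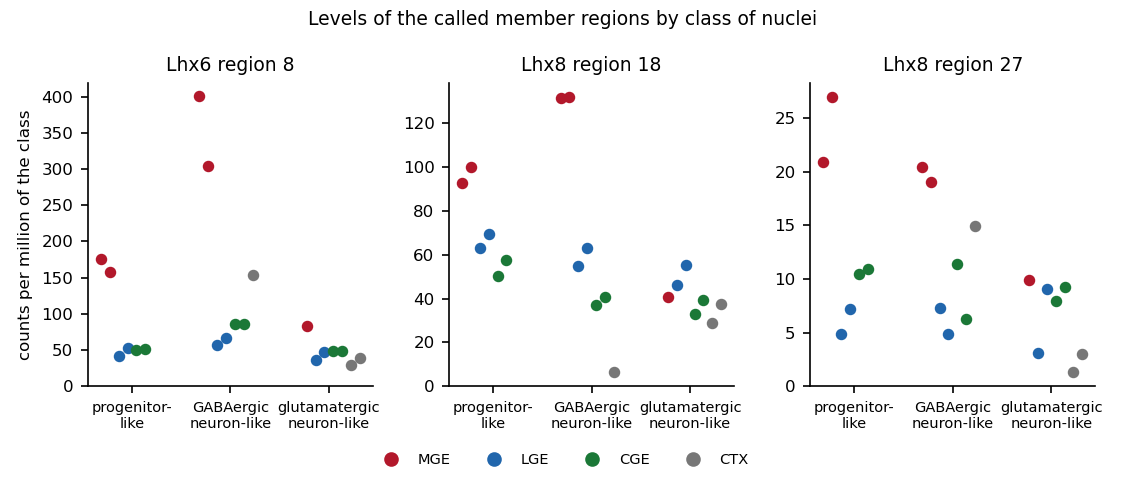
Levels of region 8 of Lhx6 and regions 18 and 27 of Lhx8 in 3 classes of nuclei, in CPM of the counts of the class, with 1 point per sample and classes of under 50 nuclei left out. The MGE points lie above LGE and CGE in the progenitor-like and GABAergic neuron-like classes at all 3 regions.

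Other genes of the pathway were measured by the same window sums. Their comparisons with CTX rest on both CTX samples, of different ages, and are not given without either of them. Upstream of the members, Nkx2-1 was higher in MGE than in LGE by 2.57 ± 0.21, than in CGE by 2.39 ± 0.21 and than in CTX by 3.45 ± 0.30 on the log2 scale (adjusted p = 0.00411, 0.0058 and 0.00185, edgeR). Shh, the secreted ligand of the ventral midline, was higher by 1.69 ± 0.14, 1.24 ± 0.14 and 1.62 ± 0.22 (adjusted p = 0.00473, 0.0255 and 0.00925). These were the 2 of 8 patterning genes called against LGE and CGE, beside 0.0608% and 0.0659% of all genes called higher in MGE. Against CTX the Shh receptor gene Ptch1 was also higher (0.66 ± 0.14) and the transcriptional effector Gli3 was lower, at -1.1 ± 0.17. Of all genes, 1.17% were called higher and 4.05% lower in that comparison. Morn5, which shares peaks with Lhx6, was higher in MGE by 1.67 ± 0.11, 1.47 ± 0.11 and 1.89 ± 0.11. Its sum includes the long MGE peak, of which the part belonging to Morn5 could not be read. Region 2 of Lhx6, over the facing starts of Morn5 and Ndufa8, was not called in any comparison.

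Among 9 GABAergic lineage factors, none was called between MGE and LGE or CGE and 6 were higher in MGE than in CTX. These were Dlx1, Dlx2, Dlx5, Dlx6, Gsx2 and Sp9, transcription factors of the subpallium, with log2 differences of 1.15 to 2.03. Beside this and the list counts that follow, 1.17% of all genes were called higher and 4.05% lower in MGE than in CTX. Against CGE 0.0659% of all genes were called higher in MGE. Dlx1 and Dlx2 are neighbours whose windows overlap, as are Dlx5 and Dlx6, so the 6 genes are not 6 separate measurements. Of 10 genes of the cholinergic and projection branch, Zic1 and Zic4, neighbouring zinc finger genes whose windows overlap, were higher in MGE than in CGE (1.34 ± 0.16 and 1.33 ± 0.16, adjusted p = 0.0302 for each), and Isl1, a LIM-homeodomain factor of cholinergic and striatal neurons, was higher than in CTX (1.01 ± 0.23, adjusted p = 0.042). Of 10 genes of the interneuron branch, none was called among the eminences. Against CTX the chemokine receptor gene Ackr3 was higher (0.88 ± 0.16) and the neuropeptide gene Sst lower (-0.98 ± 0.23). Among 9 other LIM-homeobox genes Lmx1b was higher (0.88 ± 0.18) and Lhx2 lower (-0.79 ± 0.14) in MGE than in CTX, and among 9 LIM cofactor genes Ldb2 and Lmo2 were lower (-1.1 ± 0.22 and -1.06 ± 0.16). The list medians between MGE and LGE lay between -0.053 and 0.355, beside 0.01 over all 19737 genes, other than for the members and Morn5. No list gene was called between LGE and CGE, where edgeR called no gene at all (640 had an unadjusted p below 0.05 and DESeq2 called 48). With the covered-length offset Nkx2-1 was the 1 gene of all called against LGE (1.41 ± 0.17, adjusted p = 0.0204) and against CGE (1.58 ± 0.17, adjusted p = 0.00598).

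By the pattern over the 8 samples of log2 CPM in body and 2 kb upstream, the 5 genes most like Lhx6 among 17352 that share no peak with it were Dnal1, Duxbl1, Bpifb9a, Nkx2-1 and Odf1, with Pearson's r of 0.983 to 0.989. For Lhx8 they were Sh3bgr, Rhcg, Fbxo44, Mbip and Ppa1, with r of 0.960 to 0.986. Duxbl1, Bpifb9a and Odf1 had at most 2.89 CPM in MGE and no count elsewhere, whereas Nkx2-1 had 533.7 and 354.8 CPM in MGE. Between Lhx6 and Lhx8 r was 0.909, which placed Lhx8 at rank 45 for Lhx6 and Lhx6 at rank 31 for Lhx8. These values describe 8 points from 4 tissues that share their depth and peak calling within each sample.

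The deposited counts per motif gave no called difference between tissues for the motifs of either factor. For the LHX6 motif they were 484.1 and 275.9 CPM of motif counts in MGE, 469.6 and 494.4 in LGE, 310.8 and 321.5 in CGE, and 338.0 and 407.9 in CTX, so that the MGE replicates differed by more than most tissues did. For the Lhx8 motif they were 3655 and 3763 in MGE, 3883 and 3916 in LGE, 4321 and 4059 in CGE, and 1440 and 5357 in CTX. The log2 differences between MGE and the other tissues were -0.34 to 0.27 and none was called (adjusted p of 0.683 or more, edgeR). Of all motifs tested, 0% were called in any of the 4 comparisons, with 17 to 92 at an unadjusted p below 0.05, and DESeq2 called 5 to 68. The CTX samples, of different ages, lay on either side of all others for the Lhx8 motif. Without CTX replicate 1 its difference between MGE and CTX was -0.53 (adjusted p = 0.0634), and without CTX replicate 2 it was 1.37 and called (adjusted p = 0.00997).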

How the data were processed

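The authors deposited, for each sample, whole-number counts per peak and nuclear barcode, with the peak positions, and counts per transcription factor motif, made with Cell Ranger ATAC 1.2.0 on GRCm38 (mm10) according to the submitters' processing notes. How nuclei were told from empty barcodes was not given. Each cut end is a count, so a fragment can give more than 1. Counts were summed per sample. Peaks of the 8 samples that overlapped were merged. Genes were protein-coding genes of GENCODE on GRCm38. Regions with a peak in every sample of the fit, window sums and motifs were tested with edgeR 4.0.16 (quasi-likelihood, TMM, filterByExpr, Benjamini-Hochberg over all features, threshold 0.05), with the 6 eminence samples in 1 fit and all 8 for CTX. DESeq2 1.42.0 was an alternative. No block was used in the main fit, because no label pairs the samples by number. Deviations of same-numbered eminence samples correlated at 0.09, -0.011 and 0.302. Odd values did go with the number, making up 9.54% to 10.4% of the matrix entries in replicates 1 and 5.17% to 5.85% in replicates 2. Whether same-numbered samples were processed together was not tested. In counts simulated for MGE against LGE over 76295 regions, 92% of regions raised 4-fold, 28% of those raised 2-fold, 52% of those lowered to 0.25 and 20% of those lowered to 0.5 of their level were recovered. The changed regions, 50 for each fold, were drawn only from regions above a floor on the mean count. Recovery at regions with lower counts was not measured. Nuclei were clustered (30 components, 20 neighbours, Leiden resolution 0.5). Clusters were named from the marker list with most raised genes, at least 3, unless their leading genes went against it, and no doublet caller was run. Regions named in full were those over start sites, those shared with Morn5 and, per gene and comparison with MGE, the 3 called with the largest difference, and the 5 genes most like each member had the highest Pearson correlation. The members and lists were chosen with earlier results of these data known.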

Additional observations from a re-analysis of the deposited data

How the results depend on the processing

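The 3 regions called against each tissue kept their direction in every alternative, and the sums of both windows were less stable. No member region was called between MGE and LGE with the covered-length offset (0, against 7.34% of all regions) or between MGE and CTX with those 4 samples alone (0, as for all regions), and 1 was called between MGE and CGE with all 8 samples in the fit (0.325% of all regions). With a replicate block, which is a shared number and not a known pairing, the Lhx6 sums of 1.52 (LGE, adjusted p = 0.0677) and 1.41 (CGE, 0.0803) and the Lhx8 sums of 1.00 (0.208) and 1.13 (0.106) lost their calls, as did Morn5 against LGE and CGE (edgeR called 0 of 19737 genes in either, with 1821 and 2088 at an unadjusted p below 0.05), while the counts of called member regions and the calls of both sums against CTX stayed. With the covered-length offset the sums were -0.27, 0.32 and 0.37 for Lhx6 and -0.11, 0.37 and 0.47 for Lhx8 against LGE, CGE and CTX, and Lhx6 between LGE and CGE turned to 0.59. The same offset reversed region 1 (-0.25), region 15 (-0.18) and region 23 (-0.042) of Lhx8 between MGE and LGE, region 1 between MGE and CGE (0.25), and between LGE and CGE region 8 of Lhx6 (0.55), regions 1 (0.50) and 27 (0.22) of Lhx8 and Morn5 (0.43). The covered length was set by the peak calling of the same fragments, and its part in these differences was not tested. The Lhx8 sum against LGE also lost its call with all 8 samples (0.98, adjusted p = 0.0969), body and 2 kb (0.85, 0.119), peaks within 1 kb of a start site (0.80, 0.223) and, chosen after seeing the data, without the start-site peaks of other genes (0.99, 0.0608). Against CGE it was lost within 1 kb (1.16, 0.103) and against CTX with 4 samples (1.19, 0.0607), and Morn5 between LGE and CGE was 0.037 within 1 kb. At a clustering resolution of 1 the mean MGE level of region 8 was 146.1 CPM in progenitor-like nuclei, and that of region 18 was 128.2 CPM in GABAergic neuron-like, 91.1 in progenitor-like and 56.7 in glutamatergic neuron-like nuclei.

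Leaving out 1 sample at a time, the Lhx6 sum ranged from 1.42 to 1.63 against LGE and from 1.34 to 1.46 against CGE, and the Lhx8 sum from 0.89 to 1.11 and from 1.02 to 1.22. The LHX6 motif ranged from -0.80 to 0.0064 (LGE), -0.20 to 0.61 (CGE) and -0.43 to 0.40 (CTX), and the Lhx8 motif from -0.53 to 1.37 against CTX. Between LGE and CGE, regions 2 and 12 of Lhx6 ranged from -0.11 to 0.37 and from -0.0096 to 0.25. Region 1 of Lhx8 ranged from -0.15 to 0.24 (LGE), -0.25 to 0.12 (CGE) and -0.023 to 0.37 (CTX) against MGE, and region 23 from -0.085 to 0.85 against CTX. The share gaps ranged from 29.15 to 31.91 points for Lhx6, 18.9 to 23.2 for Lhx8 and 47.7 to 48.8 for the peaks shared with Morn5. DESeq2 called 13302, 12246 and 15095 regions where edgeR called 8439, 7292 and 8039 against LGE, CGE and CTX, and 638, 612 and 2557 genes where edgeR called 21, 25 and 1040. With the covered-length offset 5597, 4427 and 4695 regions were called, and 1323 between LGE and CGE. The causes of these differences were not tested. Small peaks of a few CPM were left out of the main fit because some samples had no peak there. An alternative fit took regions with a peak in at least 2 samples, 152451 for the eminences and 178155 for CTX. Its results for those small peaks are not given here.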
